A study of Mus musculus with 2 samples.

Results

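The Ifit family (interferon-induced proteins with tetratricopeptide repeats) was examined through 5 genes taken by name, Ifit2, Ifit3, Ifit1bl1, Ifit3b and Ifit1, which lie in that order within 99.3 kb of mouse chromosome 19. All 5 were found, among 21911 protein-coding genes on chromosomes 1 to 19, X and Y of the GENCODE annotation. H3K36me3 ChIP-seq (chromatin immunoprecipitation of histone H3 trimethylated at lysine 36, followed by sequencing) was done on primary macrophages grown from bone marrow of the C57BL/6J strain, with no stimulus, with 10 ng of DNA per library and fragments of 350 to 480 bp. The single group held 2 biological replicates, both listed under 1 donor record, so their spread may be technical, and with no second group there was no comparison of conditions and no test. The authors deposited 1 peak list per replicate, 1 list called on both replicates pooled, and 1 list of replicated peaks.

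Ifit genes are switched on by type I interferon through the factor ISGF3, which includes Stat2 and Irf9 and binds a promoter element with repeated GAAA. Their proteins restrain viruses: Ifit1 binds viral RNA whose cap lacks 2′-O methylation, Ifit1 and Ifit2 bind the translation initiation factor eIF3, and in human cells IFIT3 stabilises IFIT1. H3K36me3 is laid down by Setd2, which travels with elongating RNA polymerase II, so the mark sits over the bodies of transcribed genes and usually grows towards their 3′ ends.

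H3K36me3 peaks lay over 4 of the 5 genes in both replicates, where 28.8% of all coding genes had a peak in both, and each of the 4 had a peak over its last exon. None lay over a promoter, a first exon or bins 1 to 3 when each body was split into 10 equal bins. Peaks also reached into the intron before the last exon, mainly in replicate 2. Ifit1 had the most of its body under peaks, Ifit3 and Ifit1bl1 followed, and Ifit2 had a small share of a long body. Ifit3b, the near-identical copy of Ifit3, had no peak in either replicate and a single short one in the replicated and pooled lists.

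The duplicated sequence bears on every value of Ifit3 and Ifit3b, so 2 stretches of it are shown from the mm10 plus strand. The first lies in the intron, under the upstream Ifit3 peak of every list and under the single Ifit3b peak. The second is the end of the coding sequence, under the downstream Ifit3 peak of every list, at a place where Ifit3b had no peak in any list. Capitals mark the 2 bases that differ between the copies in each stretch.
Ifit3 intron, chr19:34586661-34586780: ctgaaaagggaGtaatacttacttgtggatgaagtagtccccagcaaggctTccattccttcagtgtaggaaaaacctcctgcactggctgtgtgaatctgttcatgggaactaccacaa
Ifit3b intron, chr19:34611031-34611150: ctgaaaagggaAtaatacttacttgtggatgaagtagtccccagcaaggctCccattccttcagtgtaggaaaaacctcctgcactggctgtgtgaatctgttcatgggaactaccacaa
Ifit3 coding end, chr19:34588205-34588264: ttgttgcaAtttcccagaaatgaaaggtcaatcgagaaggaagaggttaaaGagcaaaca
Ifit3b coding end, chr19:34612575-34612634: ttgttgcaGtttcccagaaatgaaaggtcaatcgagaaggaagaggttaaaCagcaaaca

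Promoter elements were looked for because all peaks avoided the promoters. The core of the ISGF3 element, GAAA, any 2 bases and a further GAAA, was searched on both strands of the RefSeq promoter windows (GRCm38.p6, the assembly of mm10), each 300 bases long around a transcript start, and matches may overlap. Windows of Ifit3, Ifit3b and Ifit1 held 2 matches each, both windows of Ifit1bl1 held 1 match, and neither window of Ifit2 held any, against 3.44% of all 32851 promoter windows. Each stretch below has 30 bases, runs 5′ to 3′ along the gene's strand and shows its matches in capitals; the second match of Ifit3 and of Ifit3b falls outside it. The Ifit3 and Ifit3b stretches are identical. No base of any of these windows lay under a peak in any list.
Ifit1 promoter, chr19:34640785-34640814, plus strand: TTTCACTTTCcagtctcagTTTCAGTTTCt
Ifit3 promoter, chr19:34583363-34583392, plus strand: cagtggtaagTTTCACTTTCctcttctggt
Ifit3b promoter, chr19:34607759-34607788, plus strand: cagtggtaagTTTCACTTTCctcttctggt
Ifit1bl1 distal promoter, chr19:34602053-34602082, minus strand: actctgtaggTTTCATTTTCtgtaggttgg
Ifit1bl1 internal promoter, chr19:34599431-34599460, minus strand: actctgtaggTTTCATTTTCtgtaagttgg

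The lists set what could be seen. Replicate 1 had 32098 peaks over 28.5 Mb and replicate 2 had 58505 peaks over 79.4 Mb, against 56117 peaks over 85.9 Mb in the replicated list and 61439 over 90.2 Mb in the pooled list. Reads were not counted in these lists, which leaves the depth of both replicates unknown, and the absence of a peak means only that none was detected. In peaks from a bulk of cells, fewer cells with the mark and less of the mark per cell cannot be told apart. Of 8 macrophage marker genes, 5 had at least 20% of the gene body under peaks in replicate 1, against 7.65% of all coding genes. In replicate 2 all 8 had, against 23.3%. The 12 markers of T cells, B cells, neutrophils and fibroblasts all had 0% in both, as had 61.4% of all coding genes. Of 3 markers of plasmacytoid dendritic cells, which make much type I interferon, Siglech had 0% in both replicates, Bst2 0% in replicate 1 and 38.9% in replicate 2, and Tcf4 1.80% and 7.26%.

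The covered percent is the share of a gene body, from its first to its last annotated base, that lies under peaks. A gene was called marked from 20%. By this call 2 of the 5 Ifit genes, Ifit1 and Ifit3, were marked in both replicates, where 7.62% of all 21911 coding genes and 10.4% of the 7627 coding genes of 5 to 20 kb were. Replicate 1 alone called the same 2, against 7.65% of coding genes, and replicate 2 called 3, with Ifit1bl1 added, against 23.3%. The replicated list also called 3, against 24.0% of coding genes. The median covered percent of the 5 genes was 17.7 in replicate 1 and 36.7 in replicate 2, and that of all coding genes was 0 in both. These are counts over 5 genes taken by name, given as a description.

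**Figure D1:**
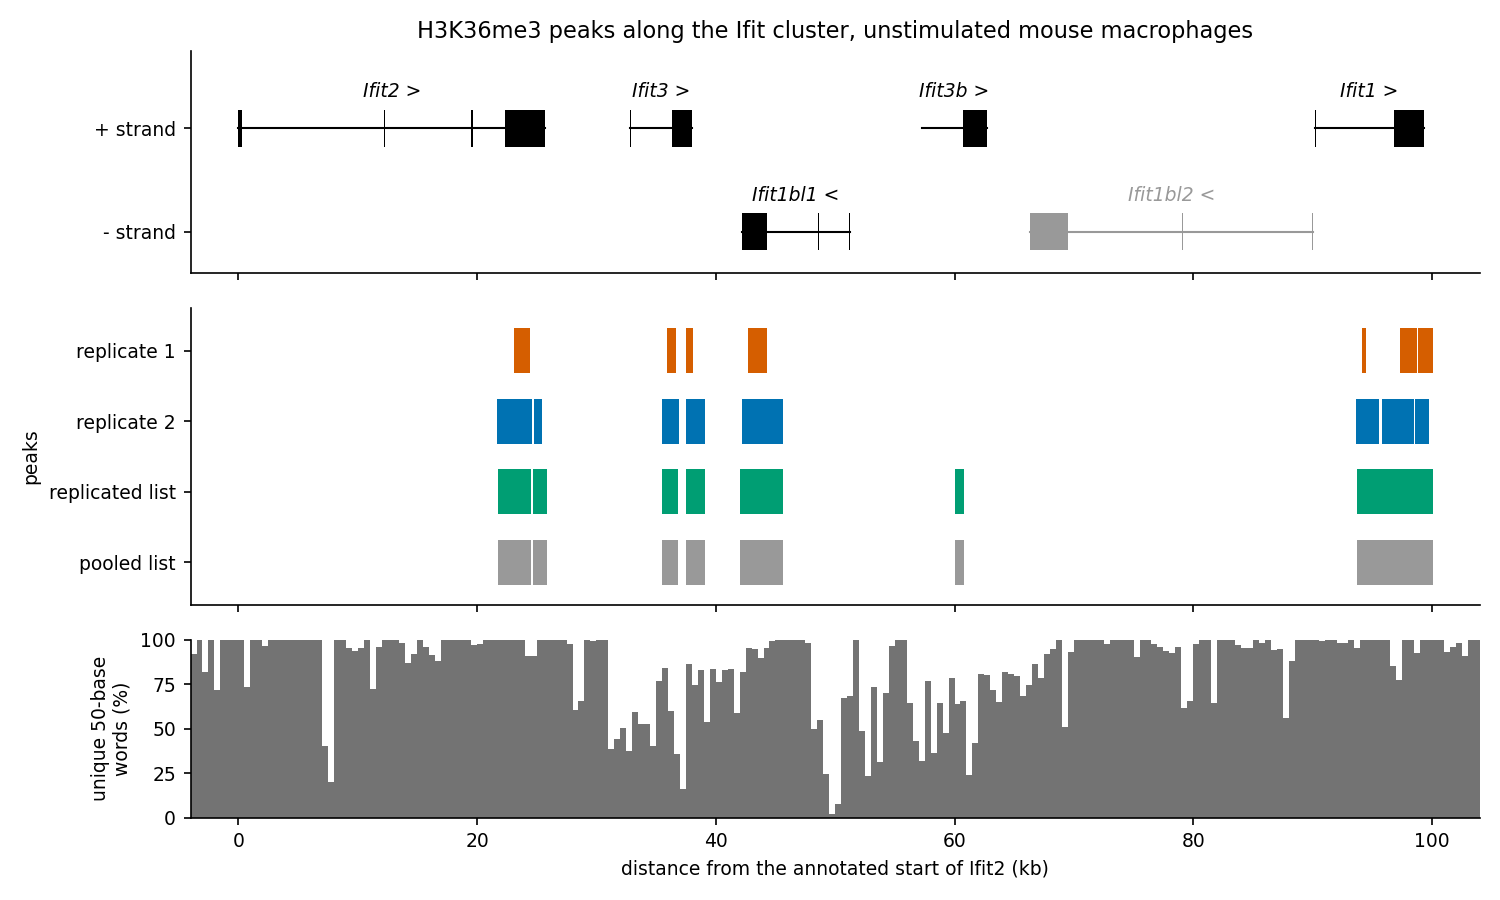
Map of the cluster in kb from the annotated start of Ifit2. The upper panel shows gene bodies (lines) and exons (boxes) on each strand, with Ifit1bl2, a neighbour, in grey; the middle panel shows the peaks of the 4 lists, and the lower panel the percent of 50-base words per 500 bp that occur once in the genome. Peaks lie over the last exons of Ifit2, Ifit3, Ifit1bl1 and Ifit1 in every list, and Ifit3b has 1 peak in the replicated and pooled lists. The first exon of Ifit3b (29 bp) and the 51-bp gap between the Ifit1 peaks in those 2 lists are too narrow to see at this scale.

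Ifit1 (ENSMUSG00000034459.8, chr19:34640871-34650009, plus strand, 9139 bp), which encodes the binder of RNA ends, had 24.8% of its body under peaks in replicate 1 and 58.8% in replicate 2, with 61.0% in the replicated list. Its mean was 41.8 ± 24.0% (SD, n = 2), the widest spread of the 5 genes. These shares were above those of 92.1% of the coding genes of 5 to 20 kb in replicate 1 and of 92.6% in replicate 2. Replicate 1 had a 374-bp peak in the intron and 2 peaks over the last exon, at chr19:34647989-34649428 and chr19:34649554-34650765. The longer of these had an enrichment over background of 3.80 by the authors' caller, above 86.3% of the peaks of that list. Replicate 2 filled most of what lay between, with peaks at chr19:34644356-34646292, chr19:34646512-34649208 and chr19:34649266-34650431 and enrichments of 3.99, 4.44 and 4.44. In the replicated list a single peak of 5475 bp, longer than 97.4% of the peaks there, ran from chr19:34645345 to chr19:34650819.

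Ifit2 (ENSMUSG00000045932.12, chr19:34550694-34576419, plus strand, 25726 bp), a restrictor of neurotropic viruses in mice, had 5.09% of its body covered in replicate 1 and 13.9% in replicate 2, with 14.8% in the replicated list. The mean was 9.48 ± 6.21% (SD, n = 2), below 20% in every list. Replicate 1 had 1 peak, at chr19:34573816-34575124 with an enrichment of 3.39, wholly inside the last exon. Replicate 2 had 2 peaks, at chr19:34572384-34575258 and chr19:34575434-34576128. The first of these had an enrichment of 5.04 and a −log10 q of 9.73, the highest enrichment of any Ifit peak in replicate 2 and above 88.6% of the peaks of that list.

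The low share of Ifit2 stood beside the longest body of the 5 members, and the part of length in it was not tested. Its introns of 11840 and 7263 bp, the 2 nearest the start, had 0% under peaks in every list. In replicate 2 its 2 peaks covered 3570 bases of the body, more than the 1910 bases of Ifit3 and the 3463 of Ifit1bl1, which both had a higher covered percent. In replicate 1 Ifit2 had 1309 covered bases, fewer than the 1607 of Ifit1bl1 and close to the 1294 of Ifit3. Over the last 5 kb of each body, a length every member has, Ifit2 had 26.2% in replicate 1 and 71.4% in replicate 2. This window is nearly the whole body of Ifit3 (5201 bp) and Ifit3b (5432 bp). Of Ifit2 (25726 bp) it is only the 3′ part, so the measure is not free of length. On that measure Ifit1 had 41.3% and 94.5%, Ifit1bl1 32.1% and 69.3%, Ifit3 25.9% and 38.2%, and Ifit3b 0% in both. With this window, chosen after the values were seen, 4 of 5 members reached 20% in both replicates, where 14.8% of the 17779 coding genes of at least 5 kb did.

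**Figure D2:**
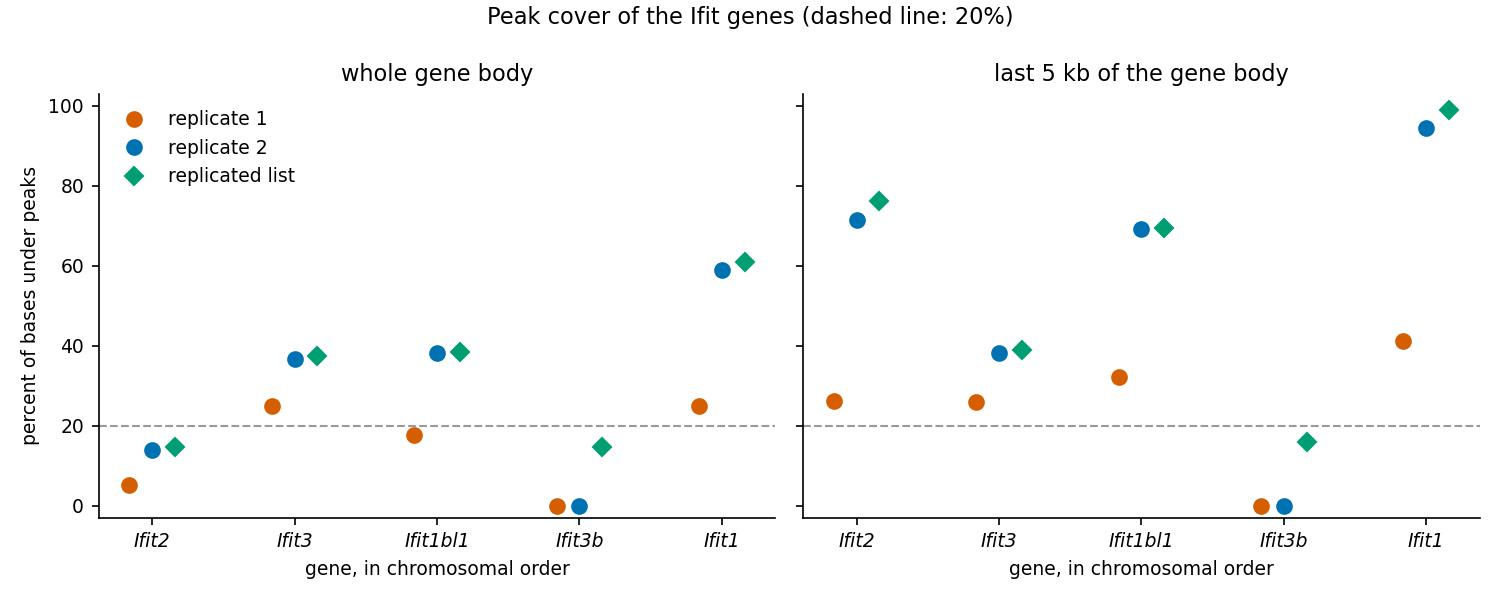
Percent of bases under peaks for each Ifit gene in chromosomal order, over the whole gene body (left) and its last 5 kb (right). Circles are replicates 1 and 2, diamonds the replicated list, and the dashed line is 20%. Ifit2 is at 5.09% and 13.9% on the left and at 26.2% and 71.4% on the right, and Ifit3b is at 0% in both replicates.

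Ifit3 (ENSMUSG00000074896.3, chr19:34583531-34588731, plus strand, 5201 bp), the gene whose human counterpart stabilises IFIT1, had 24.9% of its body covered in replicate 1, 36.7% in replicate 2 and 37.5% in the replicated list. Its mean was 30.8 ± 8.37% (SD, n = 2). The replicates were closer here than at the other 3 covered genes: the ratio of replicate 2 to replicate 1 was 1.48 for Ifit3, against 2.15 for Ifit1bl1, 2.37 for Ifit1 and 2.73 for Ifit2. Every list had a pair of peaks, the upstream peak across the border of the intron and the last exon and the downstream peak across the 3′ end. In replicate 1 they lay at chr19:34586625-34587379 and chr19:34588193-34588827, with enrichments of 2.82 and 2.32. In replicate 2 they lay at chr19:34586218-34587596 and chr19:34588201-34589776, with 3.44 and 3.89. The replicate 1 peak at the 3′ end was among the weakest of its list, with an enrichment above only 1.51% of the peaks there.

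Ifit1bl1 (ENSMUSG00000079339.7, chr19:34592891-34601956, minus strand, 9066 bp) is a relative of Ifit1 whose 3′ end faces that of Ifit3. It had 17.7% of its body covered in replicate 1, 38.2% in replicate 2 and 38.3% in the replicated list, a mean of 28.0 ± 14.5% (SD, n = 2) that straddled the 20% line. Each list had 1 peak, and it lay over the last exon: chr19:34593419-34595025 in replicate 1 and chr19:34592882-34596353 in replicate 2. The replicate 1 peak was long, above 91.3% of that list, but weak, with an enrichment of 2.25 above only 0.907% of its peaks. In the replicated list the peak had a −log10 q of 14.0, the highest of any Ifit peak there and above 95.1% of that list.

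Ifit3b (ENSMUSG00000062488.9, chr19:34607970-34613401, plus strand, 5432 bp) had 0% of its body covered in replicate 1 and 0% in replicate 2. No peak in either replicate was also what 61.4% of all coding genes had. The replicated and pooled lists both had a peak of 799 bp there, at chr19:34610699-34611497, which covered 14.7% of the body with an enrichment of 2.89 and a −log10 q of 5.39. Of its bases 8.39% were exonic and the rest lay in the intron, so it ended just inside the last exon. Of the 13445 coding genes with no peak in either replicate, 346 (2.57%) had a peak in the replicated list, and 66 (0.491%) had at least 10% of the body covered there, as Ifit3b did.

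There were 7 peaks touching the 5 genes in replicate 1, 8 in replicate 2, 8 in the replicated list and 8 in the pooled list, and the last 2 sets were identical. All 7 peaks of replicate 1 had at least 50% of their length under 1 peak of replicate 2. Only 2 of the 8 in replicate 2 had 50% of theirs under 1 peak of replicate 1. The peaks of replicate 2 were longer (median 1757 bp against 1212 bp). At 1 bp, 7 of its 8 peaks touched a replicate 1 peak, and the 695-bp Ifit2 peak touched none. Of the 8 replicated peaks, 1 had 50% under a replicate 1 peak and 6 under a replicate 2 peak. The Ifit3b peak touched no peak of either replicate.

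Peaks covered a larger share of exon than of intron sequence, and no exon but the last, which in each Ifit gene holds nearly all of the coding sequence, had any cover. Over the 5 genes together 45.0% of exon bases and 1.93% of intron bases were under peaks in replicate 1, 68.1% and 13.7% in replicate 2, and 71.4% and 15.8% in the replicated list. The last exon of Ifit1bl1 was covered to 75.2% in replicate 1 and 100% in replicate 2, that of Ifit1 to 74.7% and 97.8%, that of Ifit3 to 51.3% and 63.9%, and that of Ifit2 to 39.0% and 86.1%. That of Ifit3b had 0% in both replicates and 3.40% in the replicated list. Because introns are longer, they still held 812 of the covered bases in replicate 1, against 5668 in exons, and 5752 in replicate 2, against 8569. The intron before the last exon was reached mainly in replicate 2: 44.7% of it in Ifit1, 31.3% in Ifit1bl1, 25.3% in Ifit2 and 24.4% in Ifit3, where replicate 1 had 5.77%, 0.0471%, 0% and 12.6%. Over the 5 genes together the last exons were covered to 48.6% and the rest of the bodies to 1.89% in replicate 1, and to 73.4% and 13.4% in replicate 2. The 789 marked coding genes of 5 to 20 kb with an intron, the Ifit genes left out, had a median of 38.9% of the last exon and 29.4% of the rest of the body in replicate 1, and 88.4% and 58.6% in replicate 2. The last exon was covered more than the rest in 429 of these 789 in replicate 1 and in 586 in replicate 2. These medians are taken per gene over marked genes only. The Ifit values pool the bases of all 5 genes, of which only Ifit1 and Ifit3 were marked, and Ifit2 is longer than 20 kb. Alone, Ifit1 had 5.67% of the rest of its body covered in replicate 1 and 43.9% in replicate 2, and Ifit3 had 12.4% and 23.9%. The difference between the Ifit genes and these genes was not tested.

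Each gene body was also read in 10 equal bins from 5′ to 3′. Bins 1 to 3 of all 5 genes had 0% in every list. The mean of the 5 genes in bin 10 was 55.6% in replicate 1, 75.1% in replicate 2 and 78.7% in the replicated list. The first peak began 3.93 kb from the start of Ifit1 in replicate 1 and 3.49 kb in replicate 2. It began 3.09 and 2.69 kb into Ifit3, 6.93 and 5.60 kb into Ifit1bl1, and 23.1 and 21.7 kb into Ifit2. Peaks also ran past the annotated 3′ ends: by 756 bp at Ifit1 in replicate 1 and 422 bp in replicate 2, and by 96 bp and 1045 bp at Ifit3. At Ifit1bl1 they passed the end by 9 bp in replicate 2 and by 180 bp in the replicated list, and at Ifit2 by 0 bp in both replicates and 117 bp in the replicated and pooled lists.

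**Figure D3:**
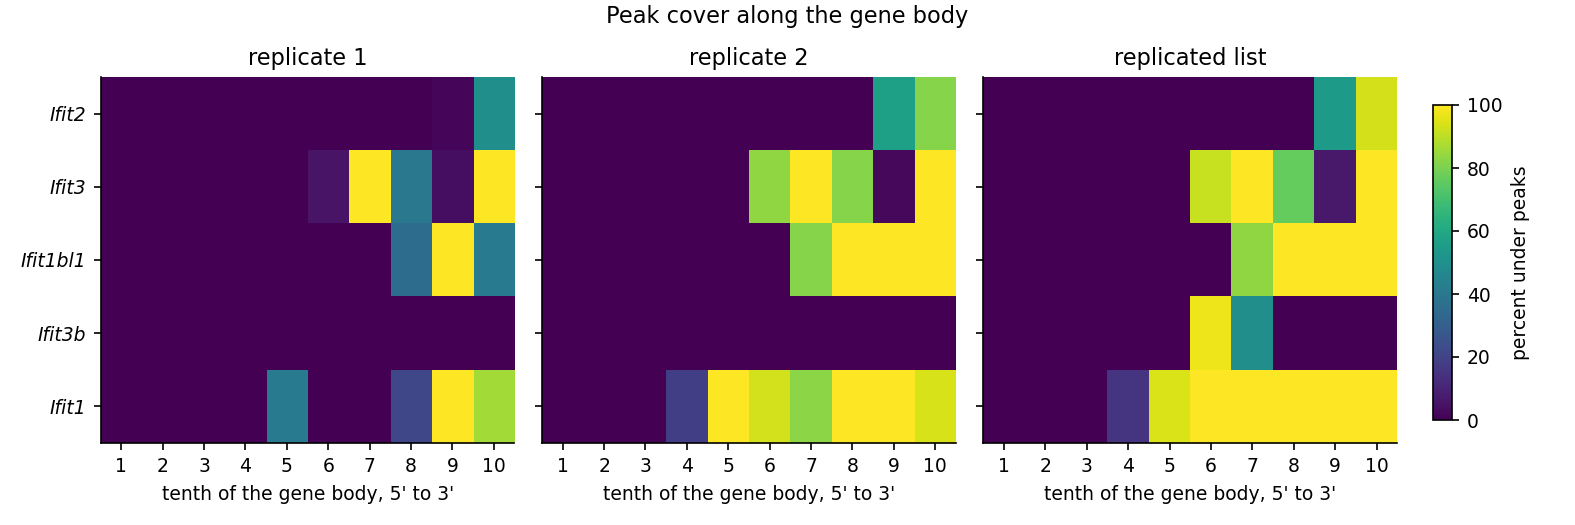
Percent of bases under peaks in 10 equal bins of the gene body, 5′ to 3′ (columns 1 to 10), for each Ifit gene (rows) in replicate 1, replicate 2 and the replicated list. Colour runs from 0% (dark) to 100% (bright). Bins 1 to 3 are at 0% throughout, and Ifit3 has a dark bin 9 between 2 covered stretches.

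Duplicated sequence limits what peaks can say about Ifit3 and Ifit3b. A block with Ifit3, chr19:34582445-34592634, aligned with a block with Ifit3b, chr19:34606843-34616945, over 10226 columns. Of 10068 aligned bases 281 differed (97.2% identity), and over the Ifit3 body 122 of 5163 did (97.6%). The coding sequences, of 1209 bases each, differed at 11 (99.1% identity). The next closest pair, Ifit1bl1 and its neighbour Ifit1bl2, had 88.2% identity, Ifit1bl1 and Ifit1 had 78.6%, and Ifit2 and Ifit3 had 69.2%. Ifit1bl1 also held a repeat of itself, 981 aligned columns at 97.8% identity.

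By its own sequence, a short read can be placed without doubt only where that sequence is found once. Of the 50-base words in the body, 55.8% were found once in the genome for Ifit3 and 57.3% for Ifit3b, against 75% for Ifit1bl1, 94.4% for Ifit2 and 97.1% for Ifit1. With 100-base words the shares were 78.5% for Ifit3 and 79.7% for Ifit3b, nearly the same in both copies. The sources used here give neither the read length nor how reads with more than 1 match were treated. Ifit3 and Ifit3b had like uniqueness and unlike peaks, 2 against 0 in each replicate, and the part of uniqueness in this difference was not tested.

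The single Ifit3b peak fell on a place that carries a peak in the other copy. Laid on the Ifit3 copy through the alignment, it ran from chr19:34586329 to chr19:34587127, which was wholly inside the upstream Ifit3 peak in replicate 2 and in the replicated list, and 63.0% inside it in replicate 1. The copies differed at 20 bases over these 799 bp (97.5% identity), and 66.8% of the 50-base words were found once in either copy. The downstream Ifit3 peak had no counterpart: its place in Ifit3b had 0% under peaks in every list, at 81.1% unique 50-base words in Ifit3 and 81.0% in Ifit3b for the replicated peak. Whether reads from one copy were counted at the other was not tested.

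The gap between the Ifit3 peaks fell on sequence with few unique words. It was 813 bp long in replicate 1, 604 bp in replicate 2 and 606 bp in the replicated list. Of its 50-base words 22.0%, 22.7% and 18.5% were found once, against 70.9%, 71.0% and 72.3% in the flanking peaks of the same lists. The copies differed there at 3, 2 and 2 bases. With 100-base words the gap had 46.6%, 44.9% and 43.2%, against 89.6%, 90.8% and 91.2% in the peaks. Gaps also lay in unique sequence, such as the 2812-bp gap of Ifit1 in replicate 1, with 93.5% of its 50-base words found once, against 99.9% in its flanking peaks. The 219-bp and 57-bp gaps of Ifit1 in replicate 2 had 100%, against 95.7% and 94.2% in their flanks. The 125-bp gap of Ifit1 in replicate 1 had 70.4%, against 99.9%. At the 175-bp gap of Ifit2 in replicate 2 it was 73.7%, against 98.7%. The part of uniqueness in the Ifit3 gap was not tested.

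**Figure D4:**
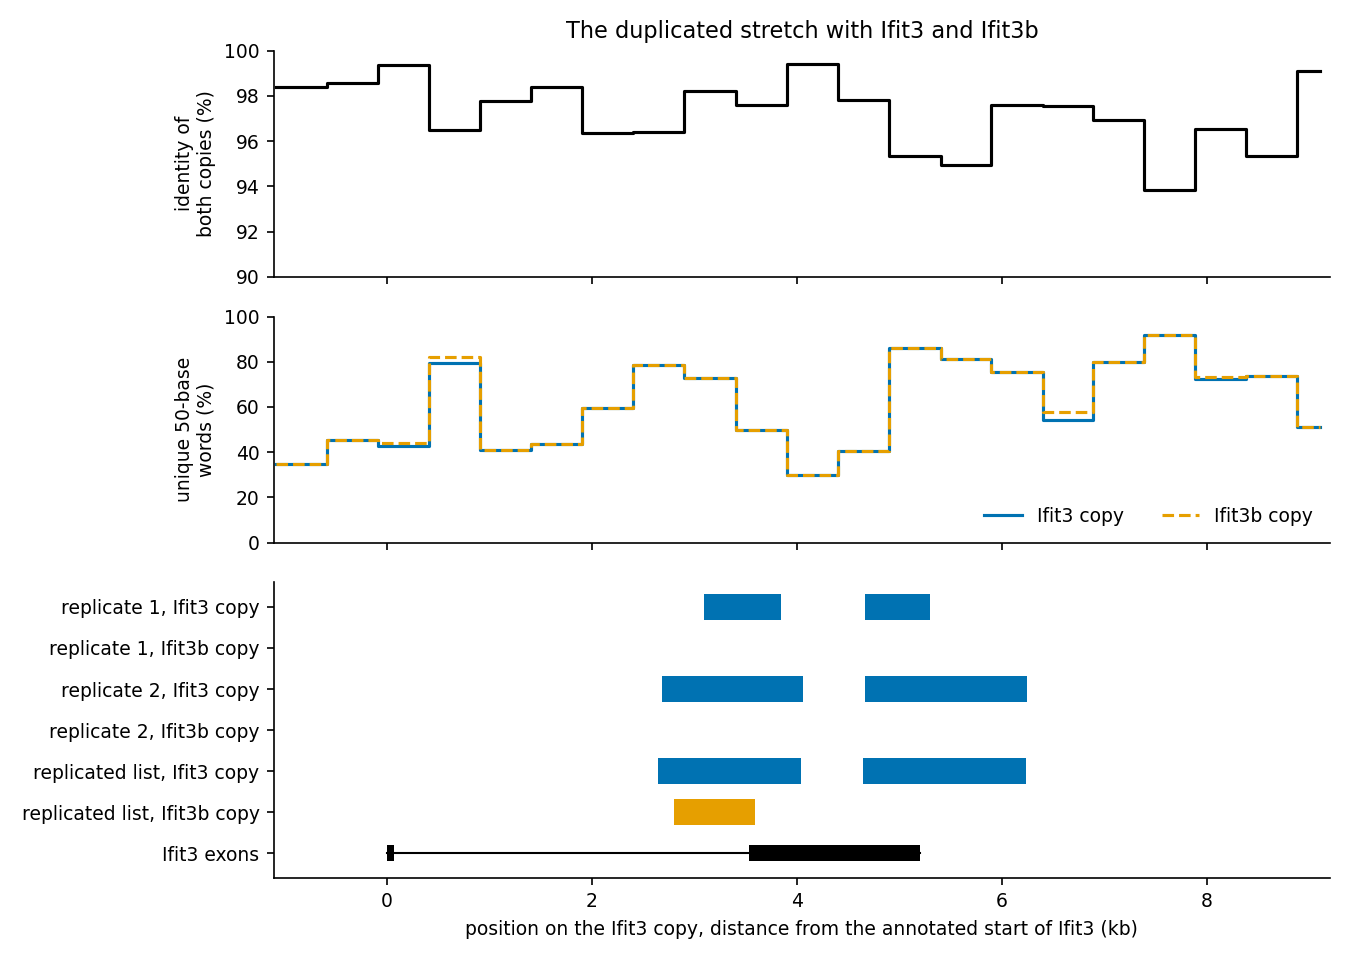
The duplicated block on the Ifit3 copy, in kb from the annotated start of Ifit3. The upper panel shows the identity of both copies in windows of about 500 bp (axis from 90 to 100%), the middle panel the percent of 50-base words found once in the genome for each copy, and the lower panel the peaks of each copy in 3 lists with the exons of Ifit3. The Ifit3b peak (orange) lies within the upstream Ifit3 peak of replicate 2 and the replicated list, and the gap between the Ifit3 peaks sits where identity reaches 99.4%.

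Repeated bases were defined by words and by alignment. Over the 5 genes, bases whose 50-base word has a further match had 5.74% under peaks in replicate 1 and 12.2% in replicate 2, against 13.0% and 28.9% of the other bases. In Ifit3 the values were 16.3% and 27.0% of repeated bases, against 31.7% and 44.4% of the others. Ifit1 went the other way in replicate 2, with 88.5% of its 269 repeated bases under peaks, against 57.9% of the others. By alignment, bases with a copy of at least 95% identity over 100 bp in the cluster had 10.3% under peaks in replicate 1 and 16% in replicate 2 over the 5 genes, against 12.4% and 29.7% of the others. Of the 13633 repeated bases by alignment, 5201 were the whole body of Ifit3 and 5432 that of Ifit3b, and none lay in Ifit1. This contrast is thus largely one between genes, with Ifit3b at 0% in both replicates. On that definition Ifit2 went the other way in both replicates, with 13.0% and 31.6% of its 860 repeated bases under peaks, against 4.81% and 13.3% of the others. In Ifit1bl1, 2140 such bases had 0% under peaks in every list, against 23.2% and 50% of its other bases in the replicates. The repeat of Ifit1bl1 on itself lay at chr19:34598577-34599556 and chr19:34601200-34602178. Both places are on the 5′ side of its peaks, which reached no further than chr19:34596366 in any list. The part of position along the body in this 0% was not tested. Counted over bases with a unique 50-base word alone, Ifit1bl1 had 22.2% in replicate 1 and 48.8% in replicate 2. Ifit3b had 0% in both replicates on this count as well.

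Near the cluster, peaks were over the lysosomal acid lipase gene and no other neighbour. Of 15 further annotated genes within 200 kb, 5 were coding. Lipa, the lipase, had 24.8% of its body covered in replicate 1 and 53.5% in replicate 2. The other 4 coding genes, Ifit1bl2, Ch25h (cholesterol 25-hydroxylase, also interferon-induced), Slc16a12 (a membrane transporter) and Pank1 (a pantothenate kinase), had 0% in every list, as had the 10 that were not coding. Among all coding genes 61.4% had no peak in either replicate, and Ch25h is short, at 1387 bp. Ifit1bl2, of 23695 bp, lies between Ifit3b and Ifit1 and shares its promoter region with Ifit1, with both ISGF3 element matches of the Ifit1 window also in its own. It is the closest relative of Ifit1bl1, and 93.0% of its 50-base words were found once.

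The Ifit genes had lower median cover than the type I interferon receptor and signalling genes, which include inhibitors of the pathway, at 17.7% in replicate 1 and 36.7% in replicate 2. In that list, 8 of 12 were at 20% or more in replicate 1, against 7.65% of coding genes, and 10 of 12 in replicate 2, against 23.3%, and the medians of the list were 35.9% and 56.7%. Of the ISGF3 genes, Stat2 had 46.2% in replicate 1 and 86.8% in replicate 2, and Irf9 had 42.4% and 50.2%. Irf7, which amplifies the interferon response, had 46.2% and 48.1%, and the receptor subunits Ifnar1 and Ifnar2 had 48.5% and 66.8%, and 23.8% and 51.2%. Usp18, which dampens receptor signalling, had 58.6% and 75.7%. Ifnb1, which encodes interferon beta, and Socs1, an inhibitor of Jak kinases, had 0% in both, and both are short, at 750 and 3297 bp. Irf7, with the cover given above, is also short, at 3776 bp, and the part of length was not tested.

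The Ifit medians were also lower than those of 24 other interferon-stimulated antiviral genes, which were 31.9% in replicate 1 and 73.8% in replicate 2. At 20% or more were 2 of the 5 Ifit genes and 17 of the 24 others in replicate 1, where 7.65% of coding genes were, and 3 of the 5 and 21 of the 24 in replicate 2, where 23.3% were. The difference between the lists was not tested. Oas3 and Oas2, sensors of double-stranded RNA, had 65.3% and 87.7%, and 54.3% and 85.5%, and Mx1, an antiviral GTPase, had 62.1% and 82.0%. Isg15, a ubiquitin-like protein, and Ifitm3, a block to virus entry, had 0% in both, in bodies of 1395 and 1185 bp.

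Genes of the cap and of eIF3, which Ifit proteins bind or sense, were looked at next. Of 6 cap methylation genes sought 5 were found by symbol; 2 of these were at 20% or more in replicate 1, against 7.65% of coding genes, and 4 in replicate 2, against 23.3%. Cmtr1, which adds the cap 2′-O methyl group whose absence Ifit1 senses, had 51.7% and 75.9%. Pcif1, a cap adenosine methyltransferase, had 32.1% and 73.9%, and Rnmt, the cap guanine methyltransferase, had 19.9% and 52.8%. Cmtr2, the second 2′-O methyltransferase, had 4.79% and 39.0%, and Rngtt, the capping enzyme, 0.574% and 3.89% of a long body. Of 13 eIF3 subunit genes, 9 were at 20% or more in replicate 1 and 10 in replicate 2, against the same shares of coding genes. Eif3d had 64.8% and 82.2%, Eif3c 46.6% and 83.3%, and Eif3l 33.3% and 71.4%, while Eif3h had 2.36% and 6.98% and Eif3j1 5.53% and 18.6%.

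**Figure D5:**
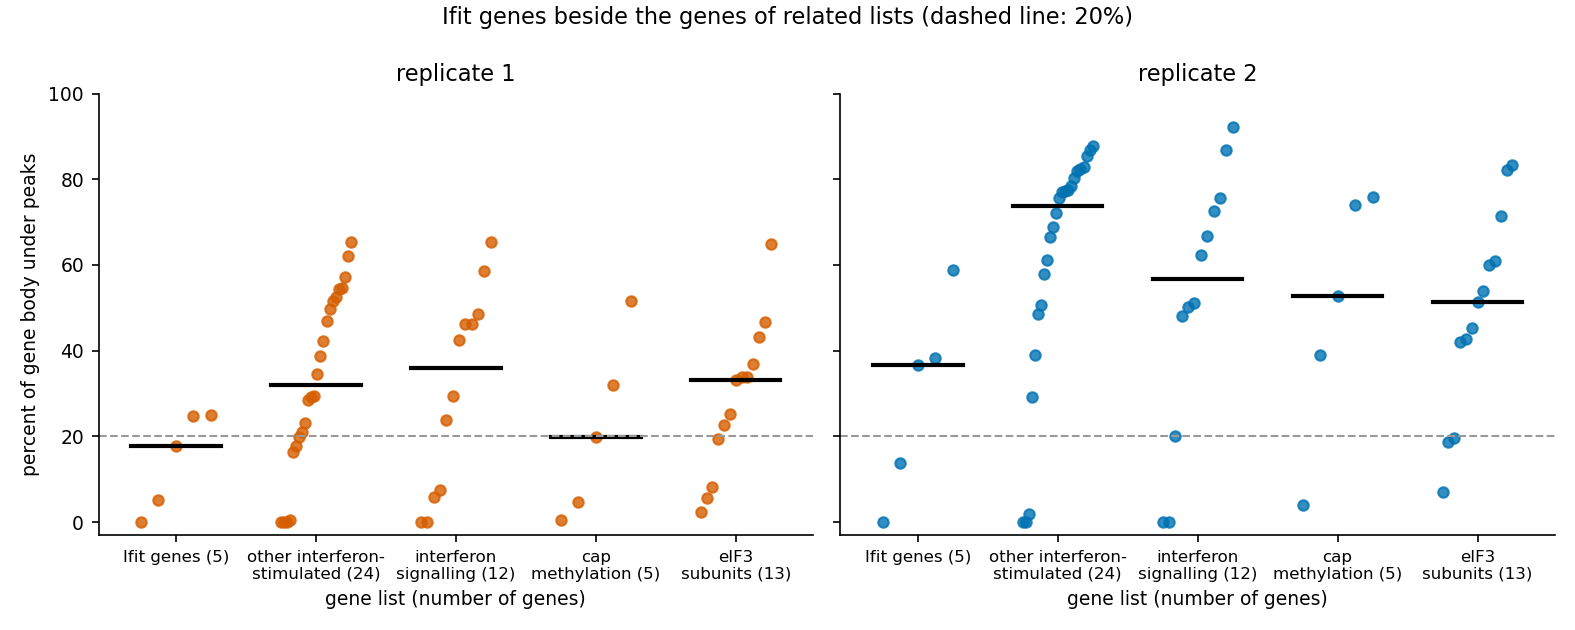
Percent of the gene body under peaks for each gene (circles) of 5 lists in replicate 1 (left) and replicate 2 (right), with the list median as a black bar and 20% as a dashed line. The median of the 5 Ifit genes is 17.7% and 36.7%, and that of the other interferon-stimulated genes 31.9% and 73.8%.

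Among 7623 other coding genes of 5 to 20 kb, the ones nearest to the median of Ifit1 and Ifit3 (24.9% in replicate 1 and 47.8% in replicate 2) were Ldha, Cct5, Rnf166, Rps10 and Rxrb. Likeness was the Euclidean distance between both covered percents, over 2 values only. Ldha, lactate dehydrogenase A, was nearest, with 24.9% and 48.0% and a distance of 0.229 percentage points, and Rxrb, a nuclear receptor, was the fifth, with 23.7% and 47.6% and a distance of 1.15.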

How the data were processed

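H3K36me3 ChIP-seq peaks of 2 biological replicates were used, grouped by the labels. The deposited lists give mm10 coordinates; per the file headers and labels, peaks of each replicate and of the pool were kept when found in pseudoreplicates, and a further list holds replicated peaks. Neither the aligner nor the caller, nor any version of them, is named: not given in the sources used here. The score in each deposited file is a display value and was not used for results. The enrichment is the authors' ratio (fold) over their background. Deposited with it are a −log10 p and a −log10 q per peak, also from the authors' caller. They serve here to describe peaks, or to rank and filter them inside 1 list.

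Gene bodies came from GENCODE M21. Covered percents were computed with Python 3.11.15, numpy 2.4.6 and pandas 2.3.3. Words of 36, 50, 75 and 100 bases were counted on both strands of the genome; copies were aligned with blastn 2.17.0 and mafft 7.526 and coding sequences with Biopython 1.88. Peaks were shared from 50% of their length. The counting code was tested on simulated data. Members and lists were chosen with earlier results of these data known. Named genes are all members, coding neighbours within 200 kb, the 3 highest and 2 lowest of each list, Isg15, Irf7, Stat2, Irf9, Ifnar1, Ifnar2 and Cmtr1, and the 5 nearest genes; 1 further gene under this rule is not reported here. Alternatives were −log10 q of at least 5, enrichment of at least 3, other gene bodies, unique bases, other thresholds, overlaps and definitions of repeated sequence, and each replicate left out. No test was run and depth is unknown, so values carry no counting interval.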

Additional observations from a re-analysis of the deposited data

How the results depend on the processing

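No paired analysis was possible because the series has a single group and no result comes from a test. The count of genes marked in both replicates (2) was 0 with −log10 q of at least 5, 1 with enrichment of at least 3, 0 from 50% of the body and, over the last 5 kb, 4; it was 2 to 3 with 1 replicate left out. The median covered percent (28.0) was 9.91 with RefSeq bodies, in which Ifit1bl1 spans 70094 bp, 48.8 over the last 5 kb, and 17.7 to 36.7 with 1 replicate left out; both of these bodies were added after seeing the data. Peaks in replicate 1 (7) numbered 1 with −log10 q of at least 5 and 3 with enrichment of at least 3. With −log10 q of at least 5, cover was 38.5% in bin 10 of the body (65.3% without the filter), 37.0% in exons (56.5%), and 7.91% in sequence with a copy of at least 95% identity (13.2%); with enrichment of at least 3 bin 10 had 51.2% and that sequence 8.41%. Repeated sequence defined by words of 50, 75 and 100 bases had 8.98%, 7.36% and 5.54%. The share of replicate 1 peaks found in replicate 2 (100%) was 28.6% when 50% of both peaks was asked. That of replicate 2 peaks in replicate 1 (25%) was 87.5% at 1 bp and 0% with −log10 q of at least 5. That of replicated peaks in replicate 1 (12.5%) was 75% at 1 bp and 0% with either filter. The cause of these shifts was not tested. The other 52 values of these results moved by less than the replicate spread. For counts the limit was 1.5 times, and for shares the exact binomial interval. For single genes 42 of 50 values moved by less than that spread. These totals hold settings that could hardly differ: for a single gene, leaving out 1 of 2 replicates cannot move the mean beyond their SD. Cover over the longest transcript was also the same, or nearly so, in every member. Replicate 1's fewer and weaker peaks limit every call that needs both replicates.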
